A study of Homo sapiens and Mus musculus with 10 samples.

Results

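The clustered replication-dependent histone genes are the 68 protein-coding genes of GENCODE release 44 on chromosomes 1 and 6 whose symbols start with H1-, H2AC, H2BC, H3C or H4C, of 19970 protein-coding genes on the autosomes and X. They comprise 6 H1, 17 H2A, 18 H2B, 13 H3 and 14 H4 genes. A gene was counted as having a promoter peak in a library when a deposited peak lay within 1 kb of any of its annotated start sites, by at least 1 base of overlap. The rule used annotation alone and no measured value, but it was chosen with earlier results of these data known.

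The study mapped accessible chromatin by bulk ATAC-seq, in which Tn5 transposase cuts open DNA, in 5 lines with 2 replicates each, and the labels name no treatment. The 4 human lines differ in origin: GM12878 is B-lymphoblastoid, K562 is an erythroleukaemia line, HFF1 consists of foreskin fibroblasts, and HEK293T comes from embryonic kidney and expresses large T antigen of SV40. The fifth line, mESC, is mouse and was not analysed here. The labels do not say whether replicates came from separate cultures, so every p-value below measures only the spread between these libraries, which may be technical.

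Core histones H2A, H2B, H3 and H4 form the nucleosome, and the linker histone H1 binds the DNA that enters and leaves it. The replication-dependent genes supply these proteins when DNA is copied in S phase. They are short, mostly without introns, and their mRNAs end in a stem-loop in place of a poly(A) tail. Many copies lie side by side and gather in a nuclear structure, the histone locus body, in which NPAT acts as a co-activator.

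The members fell into 5 clusters with gaps of at most 500 kb between neighbours (hg38). Cluster 6A (chr6:25723397-26285638) spans 562.2 kb and holds 34 members, cluster 6B (chr6:27125897-27147562) holds 5 and cluster 6C (chr6:27807479-27893891) holds 16. On chromosome 1, cluster 1A (chr1:149782689-149887965) holds 11 and cluster 1B (chr1:228434777-228463104) holds 2. Another 8 protein-coding genes start inside these clusters. Divergent neighbours are common, and 14 pairs of members start back to back, 12 of them an H2A and an H2B gene, at distances of 170 to 979 bp with a median of 238 bp. Such pairs usually shared a peak, so the members are not independent measurements. The 57 members with a peak in GM12878 replicate 1 rested on 39 distinct strongest peaks, and the lowest and highest such numbers over the 8 libraries were 30 and 46.

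RefSeq promoters (GRCh38.p14, 250 bases before to 50 after the start) were matched for 63 of the 68 members, and for 62 of these the RefSeq start lay within 50 bp of a GENCODE start site. H3C4, whose RefSeq start was 2007 bp away and the same as that of H2AC7, was left out of the counts of motifs. The 8 stretches below end at the base before the RefSeq start and are read 5′ to 3′ along the gene. They were chosen to set promoters that were open in every library beside promoters open in some lines or in none. Capitals mark the letters CCAAT (a site of the factor NF-Y), TATAAA (the TATA box), ATTTGCAT (the octamer bound by POU2F1), GGTCCG (part of the H4 promoter site bound by HINFP) and TTTCCCGC or TTTGGCGC (E2F letters), on either strand. H4C4 (chr6:26189113-26189312, minus strand) and H2BC8 (chr6:26216689-26216920, minus strand, running up to the start of its partner H2AC8) had a peak in all 8 human libraries. H3C6 (chr6:26223978-26224177, plus strand) lacked one in K562, and H4C6 (chr6:26240193-26240392, plus strand) had one in GM12878 and HFF1. H1-1 (chr6:26017788-26017987, minus strand) had one in HFF1 and H2BC1 (chr6:25726563-25726776, plus strand) in K562. H1-6 (chr6:26108136-26108335, minus strand) and H4C7 (chr6:26246997-26247196, minus strand) had none.
H4C4: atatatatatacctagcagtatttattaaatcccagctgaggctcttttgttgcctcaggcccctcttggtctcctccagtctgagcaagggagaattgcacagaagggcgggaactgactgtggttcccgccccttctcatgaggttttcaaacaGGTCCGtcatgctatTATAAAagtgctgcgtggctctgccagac
H4C7: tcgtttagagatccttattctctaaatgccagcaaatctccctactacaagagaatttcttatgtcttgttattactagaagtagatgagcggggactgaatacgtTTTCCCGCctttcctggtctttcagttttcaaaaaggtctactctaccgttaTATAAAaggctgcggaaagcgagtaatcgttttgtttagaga
H1-6: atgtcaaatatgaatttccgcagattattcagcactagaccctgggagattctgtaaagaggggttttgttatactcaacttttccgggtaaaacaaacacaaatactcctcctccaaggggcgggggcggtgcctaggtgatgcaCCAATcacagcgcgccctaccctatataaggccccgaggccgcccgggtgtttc
H1-1: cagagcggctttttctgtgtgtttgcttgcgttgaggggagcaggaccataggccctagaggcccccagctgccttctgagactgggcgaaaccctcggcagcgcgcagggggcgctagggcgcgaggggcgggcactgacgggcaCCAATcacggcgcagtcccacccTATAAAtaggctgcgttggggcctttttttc
H2BC1: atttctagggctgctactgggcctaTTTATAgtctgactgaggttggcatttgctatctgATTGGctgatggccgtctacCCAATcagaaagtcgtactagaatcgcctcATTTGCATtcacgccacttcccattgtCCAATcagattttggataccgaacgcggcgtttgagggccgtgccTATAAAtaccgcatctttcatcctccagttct
H2BC8: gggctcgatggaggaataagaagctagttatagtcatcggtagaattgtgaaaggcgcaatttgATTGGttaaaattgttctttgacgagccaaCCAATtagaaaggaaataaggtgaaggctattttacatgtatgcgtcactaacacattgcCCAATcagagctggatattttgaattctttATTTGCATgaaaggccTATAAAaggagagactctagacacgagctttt
H4C6: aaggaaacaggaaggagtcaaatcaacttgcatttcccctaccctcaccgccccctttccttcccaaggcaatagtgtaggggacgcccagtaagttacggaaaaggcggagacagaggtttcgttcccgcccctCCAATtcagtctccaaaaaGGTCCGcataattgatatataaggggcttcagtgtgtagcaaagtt
H3C6: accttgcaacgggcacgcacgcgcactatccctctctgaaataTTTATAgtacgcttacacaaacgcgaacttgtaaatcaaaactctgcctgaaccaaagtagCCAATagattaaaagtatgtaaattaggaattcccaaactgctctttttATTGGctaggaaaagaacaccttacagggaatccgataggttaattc

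The same letters recurred by histone class. CCAAT was found in all 6 H1, 16 of 16 H2A, 18 of 18 H2B and 10 of 10 H3 promoters, but in 3 of 12 H4 promoters, against 34.6% of all 35116 RefSeq promoters of the same length. The octamer ATTTGCAT was found in 14 of 18 H2B and 11 of 16 H2A promoters, against 1.77% of all promoters, and in none of the H1, H3 or H4 promoters. Back-to-back H2A and H2B genes have overlapping promoter windows, so the same letters can be counted for both genes. The H2A and H2B counts are thus not independent. GGTCCG was found in 11 of 12 H4 promoters and in 11.3% of all promoters. H4C7 was the H4 promoter without it, and it was also the one member with E2F letters, which 2.27% of all promoters hold. TATAAA was found in 41 of 62 members (66.1%) and in 11.5% of all promoters. No motif searched is part of another, and both strands were read. Members were AT-richer than promoters at large, with a median GC content of 43.1% against 58.7%. CCAAT letters were about as frequent in members with a peak in all 8 libraries (32 of 37) as in members with fewer and little repeated sequence (16 of 17). A match is a description of letters and not of a bound site.

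Depth differed between the lines. The deposited lists carry no read numbers, but a whole-number pileup (reads over the summit) and a background solved the fold and the p-value of 100% of peaks. The lowest background of a library, in reads per 150 bp, scales with depth and was 0.465 and 0.466 in HEK293T against 1.71 to 2.43 in the other 6 libraries. The lists held 52137 and 52438 peaks in HEK293T, 71241 and 78601 in K562, 101704 and 103715 in GM12878, and 120344 and 127359 in HFF1. Promoter peaks were found in both libraries at 5 of 5 markers of the line in GM12878, HEK293T and HFF1, and at 3 of 5 in K562, where HBG1 and KLF1 had none in any library. Each list of 5 markers was found most often in its own line, but 4 of the 5 HFF1 markers also had a peak in K562 and 3 in GM12878.

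Most clustered histone genes had an open promoter in these lines. A promoter peak in both libraries of a line was found for 57 of 68 members in GM12878 (83.8%), where 71.9% of all protein-coding genes had one, for 59 in HFF1 (86.8%, all genes 76.2%), for 49 in K562 (72.1%, all genes 70.4%) and for 43 in HEK293T (63.2%, all genes 67.8%). All 8 libraries held a peak at 41 members (60.3%), which is close to the 59.7% of all genes, and 7 members (10.3%) had none in any library, against 14.7% of all genes. When each list was reduced to its 40000 peaks of highest −log10 p, the counts were 51 in GM12878, 44 in HFF1, 42 in K562 and 42 in HEK293T, against 60.8%, 61.5%, 63.8% and 63.4% of all genes. The gap between HFF1 and HEK293T went from 59 against 43 members to 44 against 42. List length and depth moved with these counts, and their part was not tested apart from that reduction.

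**Figure D1:**
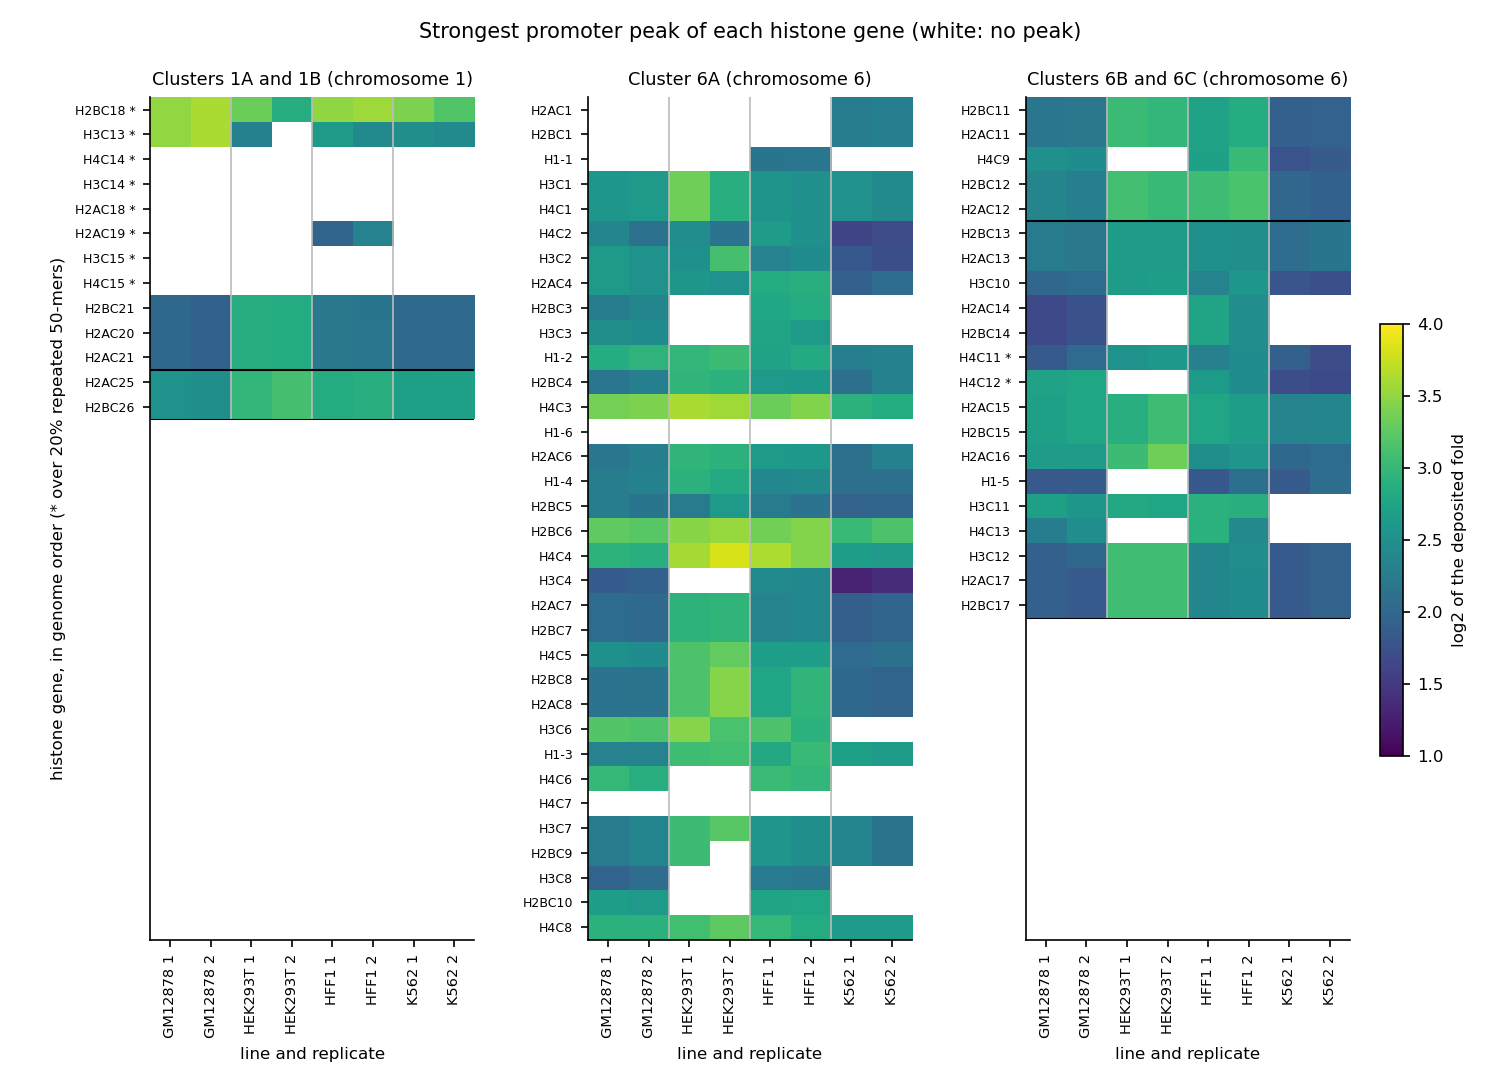
Log2 of the deposited fold of the strongest promoter peak of each of the 68 histone genes (rows, in genome order) in the 8 human libraries (columns), with white for no peak and an asterisk for genes with over 20% repeated 50-mers. A peak was found in all 8 libraries for 41 genes and in none for 7, and white cells are most frequent in HEK293T and in the duplicated part of cluster 1A.

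The share of genes with a peak varied by histone class, which was not tested. Over all genes it was 71.9% in GM12878, 67.8% in HEK293T, 76.2% in HFF1 and 70.4% in K562. Repeated sequence bears on the classes unevenly, since it surrounds H3C14, H3C15, H4C14, H4C15 and H2AC18, which had no peak. Back-to-back H2A and H2B genes usually shared a peak, so their counts are not independent. H2B genes had a peak in both libraries of a line in 17 of 18 cases in GM12878 and HFF1, 15 in K562 and 13 in HEK293T. H2A genes had one in 14 of 17 cases in GM12878, 15 in HFF1, 14 in K562 and 13 in HEK293T. H3 genes had one in 11 of 13 cases in GM12878 and HFF1 and in 7 of 13 in HEK293T and K562. H4 genes had one in 11 of 14 cases in GM12878 and HFF1, 9 in K562 and 7 in HEK293T. Of the 6 H1 genes, H1-2, H1-3 and H1-4 had a peak in all 8 libraries, H1-5 in all but the HEK293T libraries, H1-1 in HFF1 alone and H1-6 in none. By cluster, all 5 members of 6B and all 16 of 6C had a peak in both GM12878 and both HFF1 libraries, while 5 of 11 in cluster 1A had none anywhere.

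**Figure D2:**
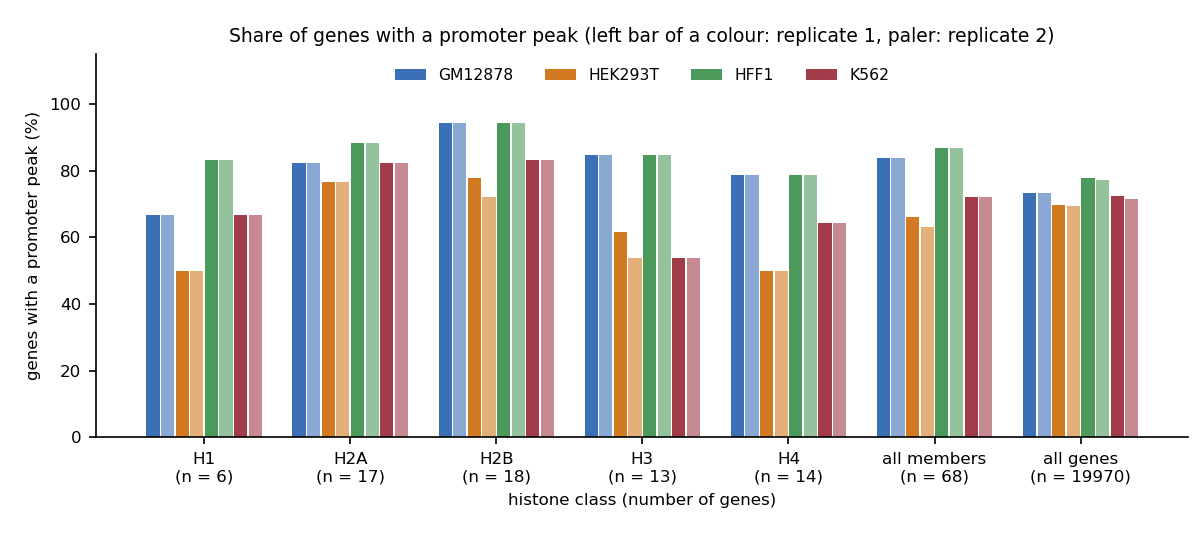
Percentage of genes with a promoter peak (bars from 0) in each human library for the 5 histone classes, all 68 members and all 19970 protein-coding genes, with replicate 2 in the paler shade. In HEK293T replicate 1 the share ran from 50% of H1 and H4 genes to 77.8% of H2B genes, and in the 2 replicates over all genes it was 69.5% and 69.8%.

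The 7 members without a peak were of 2 kinds. H4C14, H3C14, H2AC18, H3C15 and H4C15 lie in the duplicated part of cluster 1A, where 87.8% to 100% of the 50-base words in their windows occur more than once in hg38. The absence of a peak there is uncertain, since how the authors treated reads that match several copies is not given in the sources used here. H2AC19, H3C13 and H2BC18 in the same cluster (87.7%, 73.7% and 62%) and H4C11 and H4C12 in cluster 6C (23.6% and 22.3%) also held over 20% repeated words. The other 2 members without a peak, H1-6 and H4C7, have little repeated sequence. H1-6 encodes a testis-specific linker histone, and H4C7 a diverged H4. Among the 58 members with at most 20% repeated words, 53 had a peak in both libraries of GM12878, 54 of HFF1, 45 of K562 and 41 of HEK293T, 39 had one in all 8 libraries and 2 had none.

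H2AC1 and H2BC1, which encode the testis types of H2A and H2B, start back to back 215 bp apart at the edge of cluster 6A, and K562 was the only line with a peak there. Both genes shared it, with a deposited fold of 4.78 in replicate 1 and 4.91 in replicate 2 and pileups of 29 and 25 reads. This K562-only pattern was found for 1.12% of all genes. Neither gene kept this peak among the 40000 of highest −log10 p, so it is among the weaker K562 peaks.

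A set of 8 members, H2BC3, H3C3, H4C6, H3C8, H2BC10, H2AC14, H2BC14 and H4C13, had a peak in both libraries of GM12878 and HFF1 and in no library of HEK293T or K562. They were 11.8% of members, and 1.33% of all genes had this pattern. H2BC3 and H3C3 are neighbours, as are H3C8 and H2BC10, and H2AC14 and H2BC14 start 245 bp apart and shared 1 peak. H4C6, an H4 gene, had folds of 7.97 and 7.35 in GM12878 and 8.23 and 7.92 in HFF1, with pileups of 75, 66, 58 and 46 reads. H2BC10, an H2B gene, had folds of 6.40 and 6.13 in GM12878 and 6.76 and 6.83 in HFF1, with pileups of 136, 131, 79 and 72 reads. H2BC3 had folds of 4.84 and 5.20 in GM12878 and 6.88 and 7.18 in HFF1, and H3C3 had 5.57 and 5.52 in GM12878 and 6.72 and 6.21 in HFF1. The folds of these 4 genes lie within the range of the members that had a peak in all 8 libraries, which was 3.59 to 11.4 in GM12878 replicate 1 and 4.60 to 12.4 in HFF1 replicate 1.

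The weaker members of the set were H3C8, with folds from 3.87 to 4.70 over its 4 libraries, H2AC14 and H2BC14, with 3.16 and 3.38 in GM12878 and 6.75 and 5.53 in HFF1, and H4C13. In HFF1 replicate 1 the strongest peak in the window of H4C13 had its summit 1136 bp from its start and was shared with H3C11, so its value there is not its own. With 40000 peaks per library the pattern held 5 members, H2BC3, H3C3, H3C4, H4C6 and H2BC10 (7.35% of members, 0.501% of all genes). The lowest background was 2.21 and 1.97 in K562 and 1.71 and 1.73 in GM12878, and lower in HEK293T. The lists held 78601 and 71241 peaks in K562, against 101704 and 103715 in GM12878. The part of depth and list length in this pattern was not tested beyond that reduction.

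Other partial patterns covered 8 members. H3C4, H4C9, H4C12 and H1-5 had a peak in GM12878, HFF1 and K562 and in no HEK293T library (5.88% of members, 2.08% of all genes). H1-5, a linker histone gene, had folds of 3.58 and 3.65 in GM12878, 3.56 and 4.28 in HFF1, and 3.63 and 4.20 in K562, which are low in all 6 libraries. H3C4 had 3.67 and 3.80 in GM12878, 5.39 and 5.30 in HFF1, and 2.47 and 2.60 in K562, the lowest folds of any member with a peak. H4C9 had 5.69 and 5.48 in GM12878, 6.59 and 8.13 in HFF1, and 3.41 and 3.64 in K562, and H4C12 had 6.61 and 6.77, then 6.20 and 5.51, then 3.30 and 3.18.

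H3C6 and H3C11, a pair of H3 genes in different clusters, had a peak in every line but K562 (2.94% of members, 1.72% of all genes). H3C6 had folds of 9.19 and 8.97 in GM12878, 11.0 and 8.81 in HEK293T, and 8.98 and 7.55 in HFF1, among the higher values of the members. H3C11 had 6.50 and 6.02 in GM12878, 7.04 and 6.80 in HEK293T, and 7.54 and 7.37 in HFF1. Both genes kept this pattern with 40000 peaks per library, where H2AC16 had it too (4.41% of members, 1.14% of all genes). The part of list length was not tested further.

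H1-1 and H2AC19 had a peak in HFF1 alone (2.94% of members, 2.05% of all genes). H1-1, a linker histone gene, had folds of 4.47 and 4.54 with summits 17 bp upstream and 9 bp downstream of its start. The H2AC19 peaks had their summits 1122 and 946 bp upstream of its start in repeated sequence, with pileups of 14 and 15 reads. Neither gene kept a peak among the 40000 of highest −log10 p in any library. The other 2 members were mixed: H3C13 and H2BC9 lacked a peak in HEK293T replicate 2 only. In 5 of 7 libraries the strongest peak in the window of H2BC9 had its summit 1255 to 1642 bp upstream, towards its divergent neighbour H3C7.

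Open histone promoters stood low in the deposited fold. The comparison was made over the 11916 protein-coding genes with a promoter peak in all 8 human libraries, 41 of them members, which rested on 26 to 30 distinct peaks per library. The fold is the authors' own value and was ranked only within a library. The median fold of the 41 members was 4.78 and 4.89 in GM12878, 7.95 and 8.19 in HEK293T, 6.13 and 6.06 in HFF1, and 4.08 and 4.22 in K562. Over all 11916 genes the medians lay between 9.58 and 11.4. In percentiles of the genes, the median member stood at 1.91 and 2.14 in GM12878, 15.0 and 17.6 in HEK293T, 7.53 and 6.91 in HFF1, and 0.759 and 0.806 in K562. In GM12878, 40 of the 41 members were below the median of all genes in both libraries.

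Reads over the summit were not low in GM12878 and K562, and were below those of most genes in HFF1. The median pileup of the members was 121 reads in both GM12878 libraries, 31 and 35 in HEK293T, 80 and 71 in HFF1, and 111 and 101 in K562. The members' median percentile of pileup was 63.2 and 61.5 in GM12878, 41.6 and 50.4 in HEK293T, 37.8 and 37.0 in HFF1, and 74.9 and 72.4 in K562. In HFF1, 30 and 34 of the 41 members were below the median of all genes. K562 and GM12878, which had the lowest percentiles of fold, thus had the highest of pileup.

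The background, by which the fold divides, was high around members. In every library all backgrounds above the lowest were whole reads per 10 kb scaled to 150 bp, so it counts the reads in the surrounding 10 kb, the peak itself and its neighbours included. That width was inferred from these steps and is not stated in the labels. The members' median background was 13.8 and 13.6 times the lowest background of the library in GM12878, 7.91 and 8.53 times in HEK293T, 4.66 and 4.86 times in HFF1, and 11.3 and 11.45 times in K562. Over all 11916 genes it was between 3.05 and 5.12 times. In percentiles the members stood at 98.9 and 98.8 in GM12878, 81.8 and 85.3 in HEK293T, 86.8 and 87.9 in HFF1, and 99.3 in both K562 libraries. The 271 other genes of the common set within 5 Mb of a cluster had median percentiles of 48.7 to 54.8 for this background in GM12878, HEK293T and HFF1 and of 64.3 and 64.4 in K562, and of 40.6 to 47.9 for the fold over the 8 libraries. The members thus stood above their wider chromosomal neighbourhood in background, and below it in fold, in each library.

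**Figure D3:**
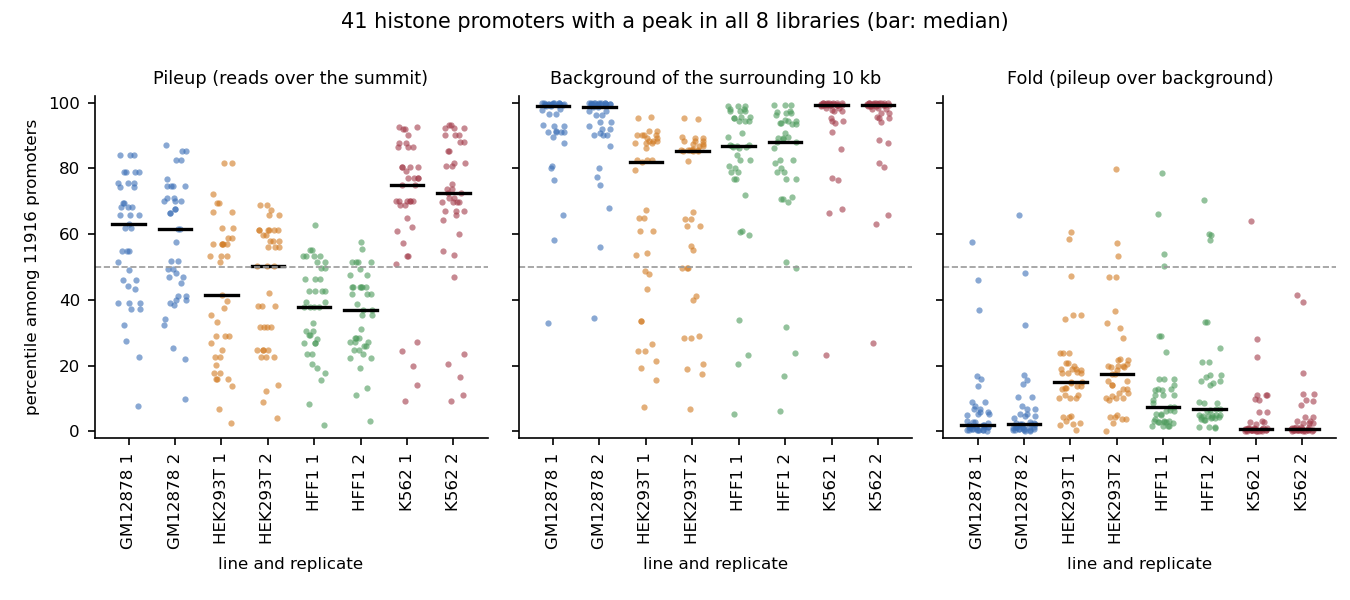
Percentile of each of the 41 members with a peak in all 8 libraries (points, with the median as a bar) among 11916 promoters, for the pileup, the 10 kb background and the fold, by line and replicate. The median background percentile is at 81.8 or above in each library, and the median fold percentile is at 17.6 or below.

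In the largest cluster the background was higher at the histone genes than elsewhere. In cluster 6A the peaks in member windows had median backgrounds of 11.9 and 11.6 times the lowest in GM12878, and the peaks elsewhere in the cluster 3.25 and 2.66 times. The same pair of values was 9.18 and 10.3 against 1.93 and 1.78 in K562, 7.73 and 8.11 against 1.06 and 1.16 in HEK293T, and 4.40 and 4.42 against 1.78 and 1.47 in HFF1. Over all peaks of a library the median was between 1.54 and 2.03. In GM12878 replicate 1 these values were 17.8 against 2.17 in cluster 1A, 9.57 against 1.9 in 1B and 14.9 against 8.09 in 6B. Cluster 6C did not show this throughout. Its member windows had 8.26 and 8.77 times the lowest in GM12878, against 9.18 and 9.26 times at the 1 peak elsewhere. In HFF1 they had 4.49 and 4.47, against 4.51 and 3.74, and in K562 replicate 1 6.96 against 4.54. The 3 other genes of the common set inside the clusters had median background percentiles of 99.4 in both K562 libraries and of 20.3 to 47.1 in the other 6. In K562 their median fold (4.08 and 4.07) and pileup (107 and 99 reads) were those of the peak at H2AC20 and H2BC21. These genes can thus share a member's peak and are not a separate comparison. In cluster 6A, peaks covered 41.7% and 42.5% of the member windows in GM12878, 42.3% and 40.1% in HFF1, 29.0% and 29.5% in K562, and 21.1% and 20.7% in HEK293T, and at most 2.11% of the rest of the cluster in any library. Counted over all 5 clusters, there were 91.5 ± 0.707 peaks in GM12878, 53.5 ± 3.54 in HEK293T, 106 ± 1.41 in HFF1 and 83 ± 1.41 in K562 (mean ± SD, n = 2). With 40000 peaks per library these became 52, 42, 51 and 51.

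**Figure D4:**
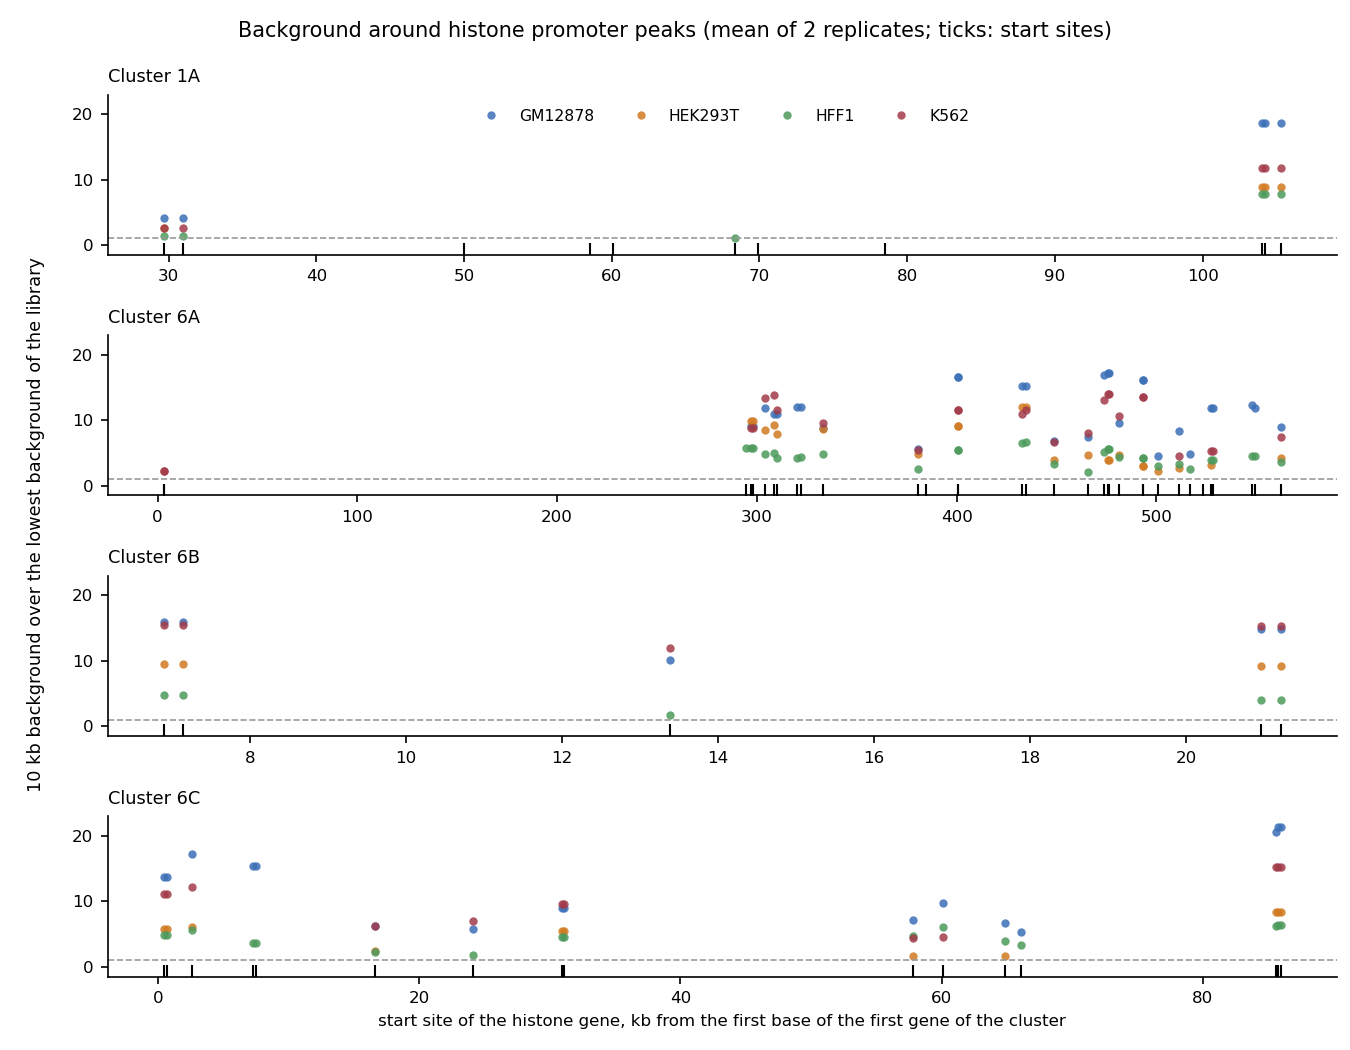
Background of the surrounding 10 kb over the lowest background of the library (mean of 2 replicates) at the strongest promoter peak of each histone gene, against the distance of its start from the first base of the cluster, for clusters 1A, 6A, 6B and 6C. The dashed line marks a ratio of 1, and GM12878 reaches 21.0 and 21.6 times in its replicates at the far end of cluster 6C.

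The members did not move as a block among themselves. By the mean percentile of fold over 8 libraries, the highest were H2BC18 at 51.4, whose window holds repeated sequence, H4C3 at 45.1 and H2BC6 at 43.9. H4C3 had folds of 10.4 and 10.6 in GM12878, 12.3 and 11.9 in HEK293T, 10.0 and 10.8 in HFF1, and 7.63 and 7.25 in K562. The background around H4C3 was 2.58 to 5.67 times the lowest of the library, below the median member in each line. The lowest were H2BC5 at 1.39, H4C11 at 1.80 and H4C2 at 2.49. H2BC5 had folds of 4.78 and 4.49 in GM12878, 4.70 and 6.11 in HEK293T, 4.66 and 4.42 in HFF1, and 3.89 and 3.90 in K562, with backgrounds of 6.54 to 15.4 times the lowest. The strongest peak in the window of H4C2 had its summit 844 to 872 bp downstream of the start in 5 libraries, past the end of this short gene, and that of H4C11 lay over 300 bp from the start in all 8.

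The rank of the fold differed between lines at nearly every member. Each library's folds were turned into normal scores of their ranks over the 11916 genes, so that 1 unit is about 1 SD of all promoters, and tested with limma. The F test over 4 lines passed an adjusted p of 0.05 for 39 of 41 members, but 68.8% of all genes passed too. H2BC5 (adjusted p = 0.358, limma) and H4C8 (adjusted p = 0.0847, limma) did not pass.

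The direction by line separated the members from all genes more than the F test did. Against the mean of the other 3 lines, 31 of 41 members ranked lower in K562 and 0 higher, where 16.9% of all genes were called in each direction. In HEK293T 28 members ranked higher (23.8% of all genes) and 1 lower, H2BC18 (21.7% of all genes). In GM12878 21 ranked lower (15.8% of all genes) and 0 higher (14.9%), and in HFF1 14 ranked higher (17.1%) and 0 lower (18.0%). At an unadjusted p under 0.05, limma gave 0 members higher in K562, 1 higher in GM12878 and 0 lower in HFF1. The median difference of the members in score was 0.80 in HEK293T and 0.33 in HFF1, but −0.53 in GM12878 and −0.77 in K562, and over all genes it lay between −0.02 and 0.05. When GM12878 replicate 1 or 2 was left out, 3 or 4 members (7.32% or 9.76%) ranked lower in GM12878, against 4.92% or 5.19% of all genes. Without HFF1 replicate 1 or 2, 9 or 7 members (22% or 17.1%) ranked higher in HFF1, against 8.43% or 8.36% of all genes. By the rank of the −log10 p, limma called 22 members higher in HEK293T (25.9% of all genes), 3 lower in K562 (13.6%), 2 lower in GM12878 (15.2%) and 0 higher in HFF1 (18.4%, and 0 members at an unadjusted p under 0.05). With the fold at the depth of the shallowest library, an alternative added after the data were seen, 18 members ranked lower in K562 (12.7% of all genes), 11 lower in GM12878 (13.5%), 16 higher in HEK293T (17.8%) and 7 higher in HFF1 (14.7%). Over the 61 members with a peak in at least 1 library, limma called members in both directions, with 25 higher and 10 lower in HEK293T, 16 higher and 5 lower in HFF1, 6 higher and 13 lower in GM12878 and 2 higher and 22 lower in K562, where each direction held 18.5% to 23.6% of all genes. The 4 contrasts come from 1 fit and share libraries, so they are not independent of each other.

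By their pileup the counts of called members leaned the other way, though not gene by gene. H1-4, H3C1, H4C1 and H4C3 were called higher in HEK293T by both measures, and H2AC25 and H2BC26 lower in GM12878 by both. On log2 of the recovered pileup minus the library median, 27 members were higher and 1 lower in K562 (all genes 21.0% and 21.9%), and 6 were higher and 19 lower in HEK293T (42.9% and 32.2%). In GM12878 11 were higher and 2 lower (19.8% and 28.8%), and in HFF1 2 were higher and 19 lower (25.4% and 26.6%). The 1 member lower in K562 was H2AC16, at −0.45 ± 0.092 (SE) on the log2 scale with limma's adjusted p = 0.00414. The rank of the 10 kb background, a measure added after the data were seen, was higher in K562 for 40 members and lower for 0 (all genes 35.3% and 33.5%), and higher in GM12878 for 36 and lower for 2 (37.0% and 32.1%). It was lower in HEK293T for 37 and higher for 0 (40.8% and 37.9%), and lower in HFF1 for 31 and higher for 4 (35.8% and 35.5%). In K562 and GM12878 the lower rank of the fold thus came with a higher background and with a pileup whose median percentile was above that of the average gene. The 2 counts of 0 were also 0 at an unadjusted p under 0.05 by limma.

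**Figure D5:**
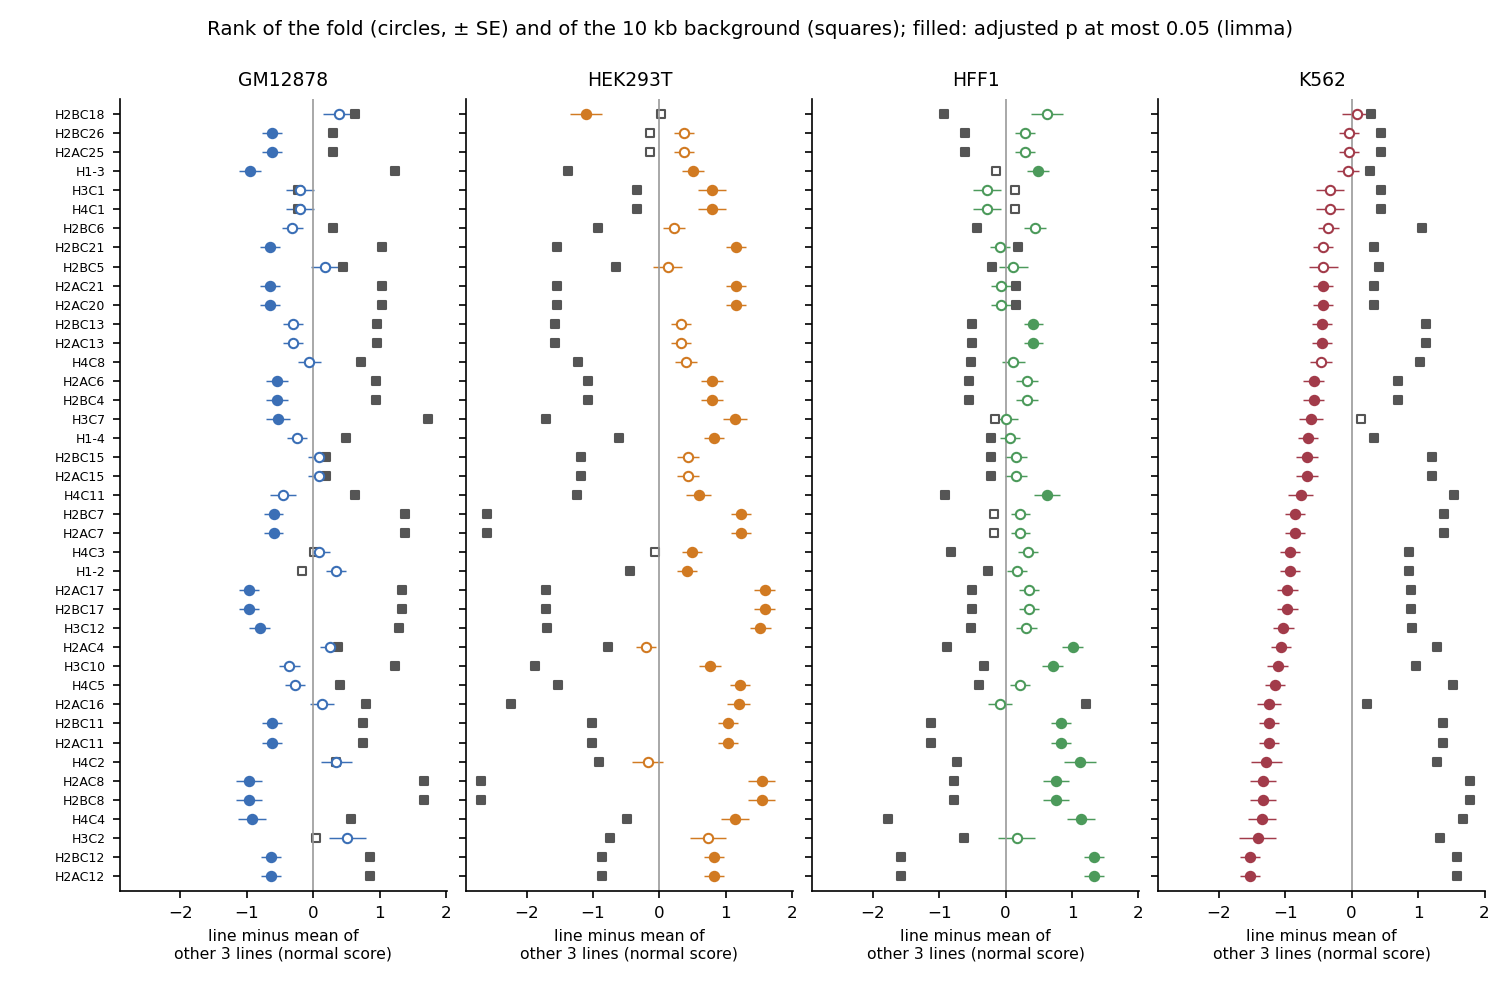
Difference of each line from the mean of the other 3 lines for the 41 members, in normal scores of the rank of the fold (circles with SE) and of the 10 kb background (squares), filled where limma's adjusted p was at most 0.05. In K562 31 circles are called below 0 and 40 squares above it, and in HEK293T 28 circles are called above 0 and 37 squares below it.

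The divergent pair H2AC12 and H2BC12 in cluster 6B shared a peak that gave the largest K562 difference among members whose 2 K562 libraries lay on 1 side of the other 6. Its fold was 5.16 and 4.89 in GM12878, 8.63 and 8.19 in HEK293T, 8.39 and 8.89 in HFF1, and 3.96 and 3.82 in K562. K562 was below all other libraries and did not overlap them. The difference in score was −1.53 ± 0.15 (SE) in K562 (limma adjusted p = 0.000177) and 1.33 ± 0.15 in HFF1 (limma adjusted p = 0.0003), where the folds overlapped those of HEK293T and the ranks did not. Its pileup was 134 and 132 reads in GM12878, 47 and 40 in HEK293T, 90 and 79 in HFF1, and 130 and 124 in K562, and its background 14.7 and 15.1, 9.81 and 8.60, 4.04 and 3.88, and 14.5 and 16.1 times the lowest, in the same order.

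H3C2, an H3 gene in cluster 6A, had folds of 6.11 and 5.75 in GM12878, 5.66 and 8.70 in HEK293T, 5.02 and 5.50 in HFF1, and 3.56 and 3.30 in K562. K562 was again below all other libraries, by −1.42 ± 0.28 (SE) in score (limma adjusted p = 0.00381). In GM12878 the strongest peak in its window had its summit 1612 and 1614 bp upstream and was shared with another member.

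In HEK293T the largest differences were those of H2AC17 and H2BC17, which share a peak at the end of cluster 6C, and of H2AC8. The fold of H2AC17 was 8.45 and 8.44 in HEK293T against 3.78 and 3.64 in GM12878, 5.20 and 5.47 in HFF1, and 3.62 and 3.87 in K562, so that both HEK293T libraries were above all others. The score difference of H2AC17 was 1.58 ± 0.15 (SE, limma adjusted p = 0.000129). Its background was 21.0 and 21.6 times the lowest in GM12878, 15.1 and 15.3 in K562, 8.04 and 8.53 in HEK293T, and 6.39 and 6.26 in HFF1. H2AC8, whose promoter with H2BC8 is printed above, had folds of 8.94 and 11.0 in HEK293T, 4.40 and 4.45 in GM12878, 6.81 and 7.80 in HFF1, and 4.05 and 3.91 in K562. Its score difference in HEK293T was 1.54 ± 0.20 (SE, limma adjusted p = 0.000374), with pileups of only 20 and 26 reads there.

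In HFF1 the third member named by the rule was H4C2, with folds of 6.28 and 5.67 against 3.09 to 5.54 in the other 6 libraries. Its score difference was 1.12 ± 0.23 (SE, limma adjusted p = 0.00533). The HFF1 folds came from different peaks. The summit lay 872 bp downstream of the start in replicate 1 and 131 bp upstream in replicate 2. In GM12878 the members named were H1-3, a linker histone gene, and the neighbours H2AC20 and H2AC21, which share a peak in cluster 1A. In GM12878 its summit lay 1217 and 1150 bp downstream of the H2AC21 start, and H2BC21 shared this peak too. H1-3 had folds of 5.03 and 5.05 in GM12878, 8.41 and 8.52 in HEK293T, 6.99 and 8.20 in HFF1, and 6.51 and 6.27 in K562, and its score difference in GM12878 was −0.95 ± 0.17 (SE, limma adjusted p = 0.00265). H2AC20 had 4.05 and 3.81 in GM12878, 7.29 and 7.21 in HEK293T, 4.60 and 4.54 in HFF1, and 4.08 and 4.07 in K562, and its score difference in GM12878 was −0.65 ± 0.15 (SE, limma adjusted p = 0.00958). GM12878 and K562 were close at H2AC20, whereas at H1-3 GM12878 stood apart from all 3 other lines.

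The position of the members' summits differed between lines. In HFF1, 78.0% and 79.7% of the members' strongest peaks had their summit within 300 bp upstream of a start, against 43.9% to 59.2% in the other 6 libraries. Over all genes the share was 62.8% to 67.1% in the 8 libraries. In GM12878, 35.1% and 38.6% of the members had the summit within 300 bp downstream, over the short gene body, against 17.4% of all genes. This share of members was 28.9% and 32.6% in HEK293T, 24.5% and 30.6% in K562, and 6.78% and 10.2% in HFF1. The shares cover the members with a peak in each library, some of which share it. H4C3, for example, had its summit 172 and 175 bp upstream in HFF1 and 60 to 124 bp downstream in the other 6 libraries. These shares were not tested.

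Histone genes outside the rule gave a wider range of presence. Of 22 such genes found in the annotation, 9 had a promoter peak in all 8 libraries, among them H3-3A and H3-3B, which encode the replication-independent H3.3, H2AZ1 and H2AZ2, and CENPA of centromeric chromatin. Another 9 had none: H3-5, H1-7, H1-8, H3-4, H2AB1, H2BW1, H2BW2, H3Y1 and H2BC12L. H4C16, an H4 gene away from chromosomes 1 and 6, had one in every line but K562, with folds of 5.10 and 4.70 in GM12878, 8.28 and 7.47 in HEK293T, and 4.35 and 3.90 in HFF1. Of the 9 genes in the common set 7 passed the F test, as did 68.8% of all genes. The largest F was at H2AX, the variant phosphorylated at DNA breaks (adjusted p = 0.00106, limma), and MACROH2A2 (adjusted p = 0.00155, limma). H2AX had folds of 6.89 and 6.73 in GM12878, 9.99 and 11.4 in HEK293T, 7.86 and 8.72 in HFF1, and 4.93 and 5.67 in K562. Its score was lower in K562 by −1.10 (limma adjusted p = 0.00187).

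A fixed list of histone locus and histone mRNA factors was open throughout. It also held broader factors, such as E2F1, CCNE1, CDK2, CHAF1A and YY1. All 26 listed genes had a promoter peak in all 8 libraries, against 59.7% of all genes. Of these 26, 14 passed the F test over lines, as 68.8% of all genes did. The largest F was at NPAT, with folds of 21.5 and 22.4 in GM12878, 12.7 and 10.9 in HEK293T, 8.29 and 8.59 in HFF1, and 7.89 and 7.71 in K562. GM12878 was above all other libraries, by 3.39 in score (limma adjusted p = 8.96e-06). COIL, which encodes the Cajal body protein coilin, came next, and its score was −1.40 in HEK293T (limma adjusted p = 0.00027). HINFP, SLBP, which binds the histone mRNA stem-loop, and LSM11 did not pass the F test (adjusted p = 0.292, 0.396 and 0.0672, limma).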

How the data were processed

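ATAC-seq peak lists of 8 human libraries (4 lines, 2 replicates each) were used, and the 2 mouse libraries were left out. The submitters' processing notes name cutadapt 3.2, Bowtie2 2.4.2, Picard and MACS2 2.2.7.1 and the builds hg38 and mm10, with no role or settings. The authors deposited 1 list per library, so replicates were not pooled. Per the file columns, a deposited peak carries a score, a fold (a linear ratio of pileup to local background) and the −log10 of a q-value and of a p-value. The lowest −log10 q of a deposited list was 2.00 to 2.05. These values were made by the authors. Read numbers were recovered by solving fold = (pileup + 1)/(background + 1) and the Poisson tail, with an error under 0.001 in −log10 p. The backgrounds were whole reads per 10 kb within 0.05.

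The members and lists were chosen with earlier results of these data known. Peaks on the autosomes and X were joined to GENCODE release 44 start sites (1 kb either side), and the strongest peak by fold stood for a gene. A line was called when both libraries had a peak. Repeated sequence was the share of 50-base words found more than once in hg38, with members over 20% reported as uncertain. Ranks of the fold were tested over 11916 genes with a peak in all 8 libraries by limma 3.58.1 in R 4.3.3, without a replicate block, with Benjamini-Hochberg adjustment over all genes and a threshold of 0.05. Tested on simulated data for K562 against the other lines over 11916 genes, limma recovered 78% of shifts of 0.5, 98% of 1, 98% of 1.5 and 100% of 2 in log2 fold. It also called 16 unchanged genes. The simulation gave every gene the same spread and moved genes in K562 alone, so these rates need not hold for the real data. Genes were named by a written rule: members with no peak or a partial pattern, the 3 highest and 3 lowest by mean percentile, and per line the 3 largest differences past the threshold with both libraries on 1 side of the other 6. Same-numbered libraries did not deviate together (r across genes from −0.00311 to 0.0176), so the numbers were not taken to pair them. PCR reads carry no molecular identifiers, so pileups are not independent molecules. Python 3.11.15 and pandas 2.3.3 were used for joins. One gene of a comparison list is not reported here.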

Additional observations from a re-analysis of the deposited data

How the results depend on the processing

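Counts of members with a promoter peak per line or in all 8 libraries stayed within 1.5 times under every alternative run (windows, summit, overlap, gene record start, −log10 q of at least 5, 40000 peaks, repeated sequence and left-out libraries). The count without any peak was 7 in the report, 13 with 40000 peaks per library and 2 without members of over 20% repeated words. Peaks inside the clusters became 52 in GM12878, 42 in HEK293T, 51 in HFF1 and 51 in K562 with 40000 peaks, by construction of shorter lists. For the rank of the fold, members past the F test numbered 22 by the −log10 p (53.7%, all genes 70.9%) and 25 with the fold at the depth of the shallowest library (61%, all genes 59.2%). Members lower in GM12878 numbered 2 by −log10 p, 13 (and 6 higher) with all genes that had a peak in at least 1 library and 11 at the shallowest depth. Members higher in HEK293T numbered 16 at the shallowest depth. Members higher in HFF1 numbered 0 by −log10 p (limma, 0 at an unadjusted p under 0.05), 23 without the added 1 and 7 at the shallowest depth. Members lower in K562 numbered 3 by −log10 p and 18 at the shallowest depth. The settings at the shallowest depth and without the added 1 were chosen after seeing the data, and the cause of these changes was not tested.

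By the recovered pileup the more frequent direction among the called members turned in all 4 lines. In GM12878 2 were lower and 11 higher, and in HEK293T 6 were higher and 19 lower. In HFF1 2 were higher and 19 lower, and in K562 1 was lower and 27 higher. On that log2 scale the named differences became 0.04 for H1-3 and 0.12 for H2AC20 and H2AC21 in GM12878, −0.04 for H2AC17 and H2BC17 and −0.76 for H2AC8 in HEK293T, −0.34 for H2AC12 and H2BC12 and −0.03 for H4C2 in HFF1, and 0.34 for H2AC12 and H2BC12 and 0.30 for H3C2 in K562. Of 216 recomputed values of the 12 named differences, 183 kept direction and threshold, 21 lost the threshold and 12 turned. These values are not independent. H2AC12 and H2BC12, H2AC17 and H2BC17, and H2AC20 and H2AC21 shared a peak and had equal differences in the main fit.

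Leaving out 1 library at a time gave 3 to 21 members lower in GM12878, 24 to 30 higher in HEK293T, 7 to 15 higher in HFF1, 22 to 34 lower in K562 and 30 to 39 past the F test. The lowest GM12878 and HFF1 counts came without a library of that line, when the lone library was assumed to vary like the others. For the 10 kb background the ranges were 30 to 36, 37 to 39, 27 to 33 and 38 to 40 in the same order of lines. With the replicate block, limma called 38 members by the F test (67.4% of all genes) and 20 lower in GM12878 (15.1% of all genes). It called 28 higher in HEK293T (22.8%), 11 higher in HFF1 (16.8%) and 27 lower in K562 (16.3%). The block changed no count of members by over 1.5 times. Depth limits HEK293T most: its median pileup at the members was 31 and 35 reads.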

Other observations

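Histone pseudogenes lie among the members. Of 14 on chromosomes 1 and 6 with these symbols, 4 had a peak within 1 kb of their start in all 8 libraries, H2BC27P, H3C9P, H4C10P and H2BC16P, and 2 had none, H2BC19P and H3C5P. H4C10P, H2BC16P, H2AC5P and H2AC10P start inside the window of a member, so their peaks may be counted for both, whereas H2BC27P and H3C9P start outside every member window. H2BC2P and H2AC2P, near the testis-type pair H2AC1 and H2BC1, had one in K562 replicates 1 and 2 alone. H1-12P, H2AC5P and H2AC10P had a peak in both libraries of GM12878 and HFF1 and in none of HEK293T or K562. Of the 8 other protein-coding genes that start inside the clusters, 3 had a promoter peak in all 8 libraries and 1 had none.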
